A study of Mus musculus with 8 samples.

Results

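The genes described here encode the granins, VGF and the proteins that cut prohormones inside dense-core vesicles: Chga, Chgb, Scg2, Scg3, Scg5, Vgf, Pcsk1, Pcsk2, Cpe and Pcsk1n. They were chosen by gene symbol from a table of 39017 Ensembl genes, and all 10 passed the filter on low counts that left 17654 genes for testing. RNA was pulled down with tagged ribosomes (translating ribosome affinity purification, TRAP) from mouse hippocampus and sequenced. Conditional knockout (cKO) mice were homozygous for a floxed allele of Hltf, the gene for the chromatin remodeller SMARCA3 (SMARCA3 fl/fl), and gave 5 libraries. WT mice were littermates lacking that homozygous floxed allele and gave 3 libraries. Per the design text, Cre driven by Cck (CCK cre+) and a ribosomal protein tagged with a green fluorescent protein (L10-EGFP+) were bred into these mice, and each library pooled 4 hippocampi. Age and sex are not given in the sources used here. Cre recombination marks every cell that has ever expressed Cck, a group that in hippocampus can include pyramidal cells beside CCK interneurons. Nothing says how the pools relate to each other, so the p-values measure the spread between these 8 pools.

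Neurons store neuropeptides in dense-core vesicles and release them on stimulation. Granins are acidic proteins that aggregate in the trans-Golgi network and help to package peptide cargo into these vesicles, and most are cut into peptides themselves. The prohormone convertases encoded by Pcsk1 (PC1/3) and Pcsk2 (PC2) cut precursors at pairs of basic residues, and carboxypeptidase E (Cpe) then trims the basic residues from the new ends. Scg5 encodes 7B2, a chaperone that PC2 needs for its maturation and that also inhibits it, and Pcsk1n encodes proSAAS, an inhibitor of PC1/3. In hippocampus the system processes the precursor of cholecystokinin among other peptides.

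Total counts ran from 31760155 to 61823651 per library. Hltf was at 5.10, 4.49, 4.21, 2.83 and 11.4 CPM in cKO 1 to 5, against 13.7, 8.39 and 9.88 CPM in WT 1 to 3 (CPM, counts scaled by library totals with TMM factors). The level in cKO 5 lay within the WT range, so that library is called the library labelled cKO 5 below. The difference did not pass over all 5 cKO libraries (log2 fold change -0.93, SE 0.39, adjusted p 0.558 by edgeR). Without the library labelled cKO 5 it was -1.36 (adjusted p 0.359 by edgeR) and did not pass either. In a principal component analysis, component 1 (31.1% of variance) set the library labelled cKO 5 apart, and component 2 (22.3%) set cKO 4 apart. Cck was at 661 ± 108 CPM in cKO (SD, n = 5) and 540 ± 112 CPM in WT (SD, n = 3), and both the GABAergic marker Gad1 (35.3 and 34.2 CPM on average in cKO and WT) and the glutamatergic marker Slc17a7 (484 and 344 CPM) were present.

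Several members share a promoter letter pattern that did not enter their choice. RefSeq promoter windows (build GRCm38.p6, 250 bases before to 50 after the gene's start) were at hand for 8 of the 10 members, all but Vgf and Cpe. The palindrome TGACGTCA, the cAMP response element that CREB-family factors bind, was found in 3 of these 8 windows (Chgb, Scg2 and Pcsk1) and in 588 of 32851 windows of all genes (1.79%). Its core TGACG, searched on both strands and contained in every full site, was found in 7 of 8 windows, all but that of Pcsk1n, and in 20.8% of all windows. The matches are descriptions of letters and not of binding. Relative to the RefSeq start, the palindrome began at position -68 in Scg2, -72 in Chgb and -78 in Pcsk1. RefSeq starts differ from the gene bounds of GENCODE given for the members below, and the sites of Scg2 and Chgb lie inside those bounds. The 3 full sites are shown with a core site of Chga, at -44, and a core site upstream of Scg5, the member with the largest fold change, as stretches of 30 bases with the match in capitals.
Scg2 (chr1:79440076-79440105, minus strand): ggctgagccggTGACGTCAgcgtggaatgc
Chgb (chr2:132781559-132781588, plus strand): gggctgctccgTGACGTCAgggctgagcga
Pcsk1 (chr13:75089768-75089797, plus strand): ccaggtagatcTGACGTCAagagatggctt
Chga (chr12:102554885-102554914, plus strand): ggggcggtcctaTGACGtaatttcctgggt
Scg5 (chr2:113829249-113829278, minus strand): aaaggaggtaaaTGACGttcataggggtcg
In the comparison below, these members with the full palindrome had log2 fold changes of 0.03 (Scg2, SE 0.17), -0.08 (Chgb, SE 0.16) and -0.55 (Pcsk1, SE 0.32). None of these passed. The sign of Scg2 turned in 9 of 21 alternatives, so whether the members share a direction cannot be judged.

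Levels of different genes were compared per length, as CPM per 1000 bases of the union of a gene's exons. Cpe stood at the top of the members in both groups, at 800 in cKO and 939 in WT, where it exceeded 99.9% of the genes tested. Chgb came next, at 133 in cKO and 141 in WT, and was the most abundant granin. Scg5 (122 in cKO, 72.5 in WT) and Scg2 (66.9 and 65.6) followed. The ranges of Chgb and Scg5 overlapped in cKO but not in WT, and those of Scg5 and Scg2 overlapped in WT but not in cKO. Pcsk1n (30.5 in cKO, 25.4 in WT), Pcsk2 (24.0 and 22.9) and Scg3 (22.2 and 24.4) formed a middle group whose neighbours overlapped in both groups. Vgf (7.09 and 7.23) and Chga (6.35 and 6.01) lay lower, and their ranges overlapped in cKO but not in WT. Pcsk1 was the lowest member, at 0.918 in cKO and 1.34 in WT, a level above that of 33.8% of the genes tested in WT. Of the convertases, PC2 message exceeded PC1/3 message in each of the 8 libraries.

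**Figure D1:**
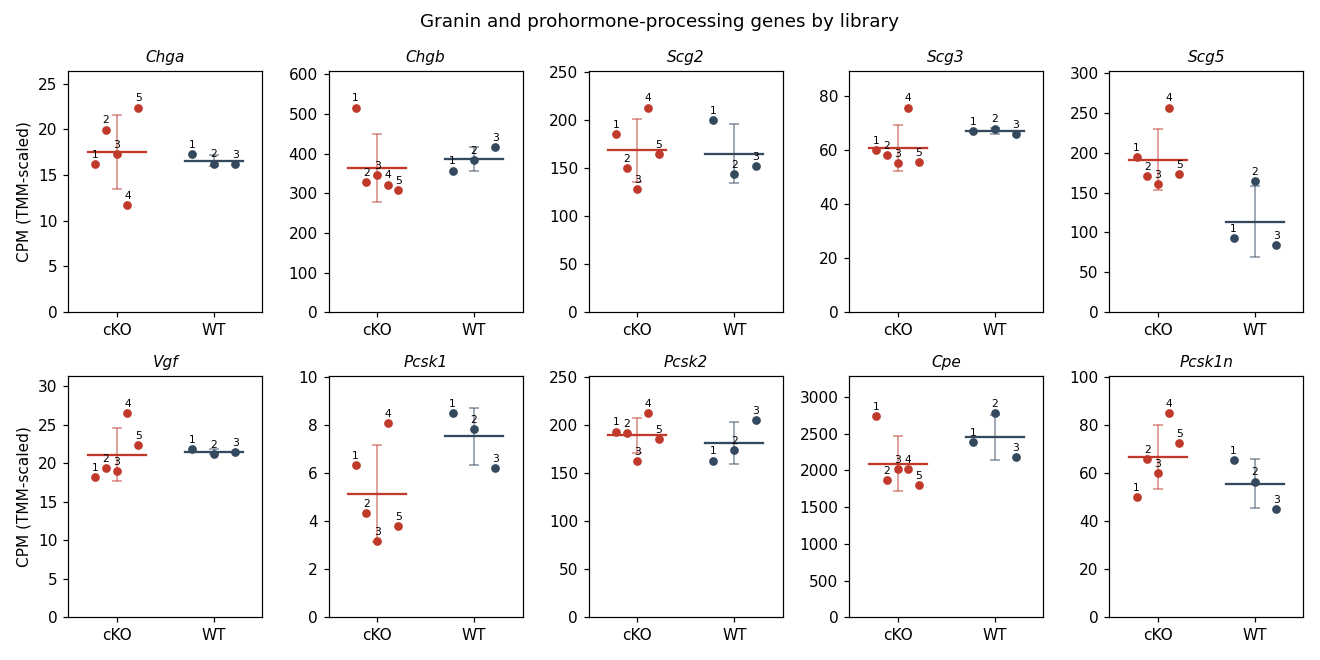
CPM of each of the 10 genes (y axis, from 0) in the cKO libraries (left, n = 5) and the WT libraries (right, n = 3). Points are libraries with their numbers, horizontal lines are means and bars are SD. The groups overlap for all 10 genes, and Scg5 has 2 WT libraries, at 92.7 and 83.8 CPM, below every cKO library.

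Between cKO and WT the question is which messages of this system differ on tagged ribosomes when Hltf is floxed in Cck-lineage cells. None of the 10 members passed an adjusted p under 0.05 by edgeR, in a table where 0 of 17654 genes did (0%). Scg5 alone had an unadjusted p under 0.05, so 1 of 10 members did, beside 8.72% of all genes tested (1540 genes). The groups did not overlap in 0 of 10 members, beside 7.19% of all genes (3.38% higher and 3.82% lower). DESeq2 called 108 of 10801 genes (1%) and limma-voom with quality weights 4 of 17654 (0.0227%), and neither called a member. On counts simulated for these 8 libraries, DESeq2 made 42 false calls among unchanged genes, against 7 by edgeR and 8 by limma-voom. The median log2 fold change was 0.00050 over the 6 granin-family members and -0.08 over the 3 proteases with Pcsk1n, beside 0.02 over all genes tested. Since TRAP RNA is a bulk measure, fewer cells of a type and less RNA per cell cannot be told apart.

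**Figure D2:**
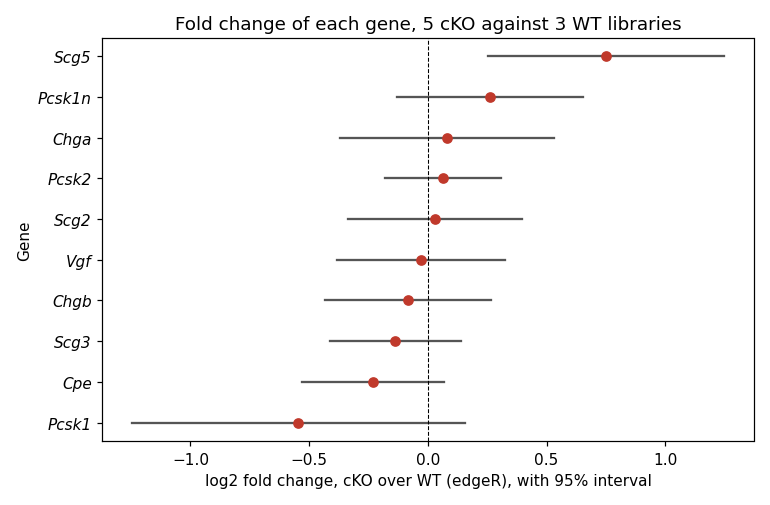
Log2 fold change of cKO over WT (x axis, edgeR) for each of the 10 genes (y axis), with points for estimates and lines for 95% intervals. Only the interval of Scg5, 0.25 to 1.25, lies on a single side of 0; it is not adjusted for the number of genes tested.

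Scg5, which encodes the PC2 chaperone 7B2, had the largest difference. Its gene (ENSMUSG00000023236) lies on the minus strand of chromosome 2 (mm10, 113776362 to 113829121). Scg5 stood at 194, 171, 161, 257 and 173 CPM in cKO 1 to 5, against 92.7, 165 and 83.8 CPM in WT 1 to 3, from 3487 to 11887 counts per library. WT 2 lay above cKO 3 and below the other 4 cKO libraries, while WT 1 and WT 3 lay far below all of them, so the groups overlapped in a single pair of libraries. The means were 191 ± 38.5 CPM in cKO (SD, n = 5) and 114 ± 44.4 CPM in WT (SD, n = 3), a fold of 1.68 with a 95% interval of 1.19 to 2.37. On the log2 scale the difference of 0.75 (SE 0.23) had an unadjusted edgeR p of 0.00673, rank 222 of 17654, and an adjusted p of 0.499, so it did not pass. DESeq2 gave Scg5 an adjusted p of 0.0596 and limma-voom 0.226.

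Every setting tried left Scg5 higher in cKO. With a single library left out the log2 fold change ran from 0.57 without WT 3 to 1.12 without WT 2, and it was 0.78 without the library labelled cKO 5 and 0.62 without cKO 4. Over all 21 alternatives its unadjusted p ran from 0.000162 to 0.0392, and its adjusted p from 0.0596 to 0.890. The spread of Scg5 over the 8 libraries (SD 0.54 on the log2 scale) exceeded that of 99.4% of the 1000 genes nearest to it in CPM, whose median was 0.18. Within groups the SD of Scg5 was 0.27 in cKO and 0.53 in WT.

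**Figure D3:**
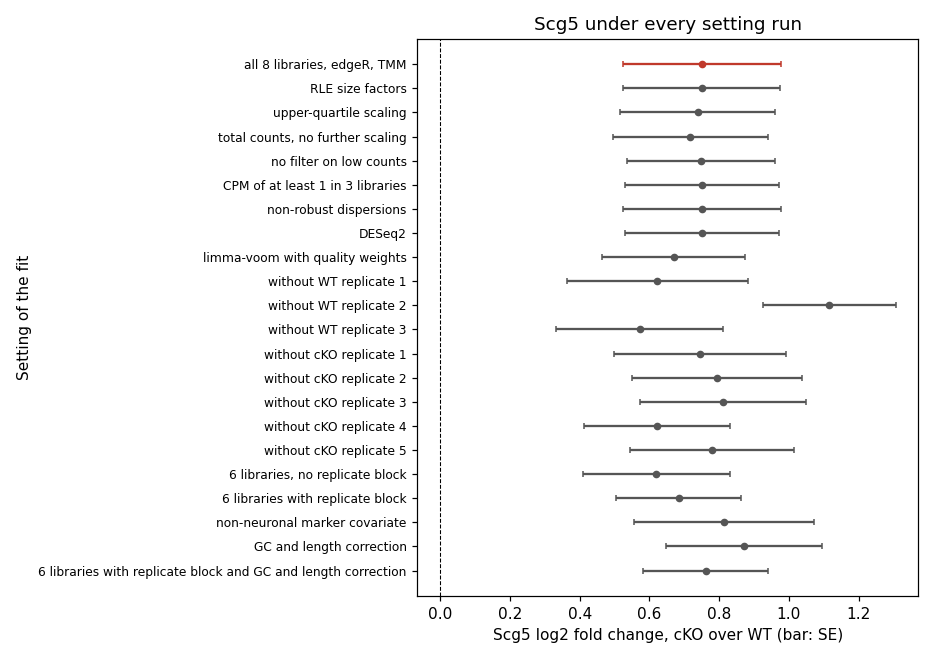
Log2 fold change of Scg5, cKO over WT (x axis), under the 22 settings run (y axis). Points are estimates and bars are SE; the red point is the fit to all 8 libraries, at 0.75, and the values range from 0.57 without WT replicate 3 to 1.12 without WT replicate 2.

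Markers of other cells moved in the same libraries. The summed level of 14 oligodendrocyte markers was 88.1 to 118 CPM in cKO and 74.0 to 80.4 CPM in WT, with 3 of 14 at an unadjusted p under 0.05, all higher, and none at 0 in all libraries. Over all genes tested, 5.02% were higher and 3.7% lower at that p, which is the background for the marker counts here. Markers of oligodendrocyte precursors summed to 9.51 to 12.03 CPM in cKO and 6.72 to 8.59 CPM in WT, with 2 of 6 tested higher at that p. Choroid plexus and ependymal markers summed to 69.0 to 158 CPM in cKO and 85.1 to 95.6 CPM in WT, with 2 of 7 tested higher at that p and 1 of 10 at 0 in all libraries. Enpp2 alone gave 32.7 to 90.5 CPM of that sum in cKO and 45.5 to 51.4 CPM in WT. The sums overlapped between groups for astrocyte markers (350 to 559 CPM in cKO and 366 to 505 CPM in WT), microglial markers (7.86 to 14.5 and 10.6 to 18.2 CPM), vascular markers (22.5 to 86.2 and 54.5 to 72.7 CPM), GABAergic markers (142 to 262 and 188 to 232 CPM) and CCK interneuron markers (884 to 1142 and 762 to 988 CPM). Slc1a2 alone gave 307 to 478 CPM of the astrocyte sum in cKO and 300 to 405 CPM in WT. Rgs5 alone gave 18.3 to 82.4 CPM of the vascular sum in cKO and 52.9 to 71.4 CPM in WT. Cck alone gave 571.5 to 837.3 CPM of the CCK interneuron sum in cKO and 414.5 to 631.3 CPM in WT. The median log2 fold change of that list was -0.21, with 4 genes above 0 and 6 below. With the mean of the glial, precursor and vascular markers as a covariate, the log2 fold change of Scg5 was 0.81 (SE 0.26). That mean pools lists that moved apart, so it cannot adjust for the oligodendrocyte markers alone. In the library labelled cKO 5, mean log2 levels relative to WT were 0.43 for oligodendrocyte and 0.49 for vascular markers. Its summed vascular level was 22.5 CPM, below all WT libraries, so the sum and the mean of that list differed in direction. For astrocyte and microglial markers the mean log2 levels in that library were -0.40 and -1.67. The summed level of 11 glutamatergic markers was 8752 to 13070 CPM in cKO and 8264 to 8701 CPM in WT, with 3 of 11 at an unadjusted p under 0.05, all higher. Camk2a alone gave 6440 to 10060 CPM of that sum in cKO and 5930 to 6336 CPM in WT. The median log2 fold change of the 11 markers was 0.16, with 7 above 0 and 4 below. Slc17a7 among the 11 markers differed by 0.49 on the log2 scale (SE 0.10, edgeR adjusted p 0.470). The part of the oligodendrocyte, glutamatergic and choroid plexus markers, each taken alone, in the Scg5 difference was not tested.

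The other granins differed little in mean. Chgb (chromosome 2, 132781278 to 132795079, plus strand), the most abundant of them, was at 516, 328, 345, 322 and 309 CPM in cKO 1 to 5, against 357, 383 and 417 CPM in WT 1 to 3. In cKO 1 Chgb was the highest of all 8 libraries, and in the other 4 cKO libraries it lay below every WT library. Its log2 fold change was -0.08 (SE 0.16, edgeR adjusted p 0.920), and without cKO 1 it was -0.24, at an unadjusted p of 0.0160 and an adjusted p of 0.318. With the marker covariate it was -0.31, at an adjusted p of 0.199. It was nearer to 0 without WT 3 (-0.024), without the library labelled cKO 5 (-0.037), without cKO 4 (-0.042) and without cKO 2 (-0.044), and -0.14 without WT 1. Cpe, the carboxypeptidase, had the profile closest to Chgb among the members, with a root mean square difference of 0.151 between their centred log2 CPM over the 8 libraries.

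Cpe (chromosome 8, 64592542 to 64693054, minus strand) was at 2738, 1868, 2011, 2019 and 1802 CPM in cKO 1 to 5, against 2383, 2781 and 2184 CPM in WT 1 to 3. As with Chgb, cKO 1 stood high, and the other 4 cKO libraries lay below all WT libraries. For Cpe the log2 fold change was -0.23 (SE 0.14, 95% interval -0.53 to 0.07), with an adjusted p of 0.671 by edgeR. Without cKO 1 it was -0.35, at an unadjusted p of 0.00375 and an adjusted p of 0.244, so Cpe did not pass there either. It was -0.13 without WT 2, at an unadjusted p of 0.425, and -0.13 with the replicate block and GC correction.

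Scg3 (chromosome 9, 75643189 to 75684056, minus strand), whose protein binds chromogranin A, was at 59.8, 58.0, 55.2, 75.7 and 55.5 CPM in cKO 1 to 5, against 66.9, 67.9 and 65.8 CPM in WT 1 to 3. Its 3 WT libraries were close together (SD 1.03 CPM), cKO 4 lay above them and the other 4 cKO libraries below. The fitted difference of -0.14 in log2 (SE 0.12) had an adjusted p of 0.809 by edgeR, and without cKO 4 it was -0.23 at an unadjusted p of 0.0493 and an adjusted p of 0.616.

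Vgf (chromosome 5, 137026392 to 137033351, plus strand) encodes a granin-related protein whose peptides are released from neurons and whose transcription rises with activity. It was at 18.2, 19.4, 19.0, 26.5 and 22.3 CPM in cKO 1 to 5, against 21.8, 21.2 and 21.5 CPM in WT 1 to 3. The WT libraries were close together (SD 0.327 CPM), cKO 1 to 3 lay below them, and cKO 4 and the library labelled cKO 5 lay above. The fold of Vgf was 0.981 with a 95% interval of 0.768 to 1.25 (edgeR adjusted p 0.980). Without cKO 1, without cKO 2 or without cKO 3 the sign turned, at log2 fold changes of at most 0.02, and it also turned with the marker covariate, to 0.090.

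Scg2 (chromosome 1, 79434669 to 79440120, minus strand) encodes secretogranin II, the precursor of secretoneurin. It was at 186, 150, 128, 213 and 165 CPM in cKO 1 to 5, against 200, 144 and 152 CPM in WT 1 to 3, so the WT range lay inside the cKO range. Its log2 fold change was 0.03 (SE 0.17, edgeR adjusted p 0.980), and its sign turned in 9 of 21 alternatives. Chga (chromosome 12, 102554969 to 102565028, plus strand), which encodes chromogranin A, averaged 17.5 ± 4.04 CPM in cKO (SD, n = 5) and 16.6 ± 0.615 CPM in WT (SD, n = 3). Its lowest library was cKO 4, at 11.7 CPM, and its highest was the library labelled cKO 5, at 22.4 CPM, with WT at 16.2 to 17.3 CPM between them. For Chga the log2 fold change was 0.08 (SE 0.20, edgeR adjusted p 0.949), and it was -0.03 without the library labelled cKO 5.

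**Figure D4:**
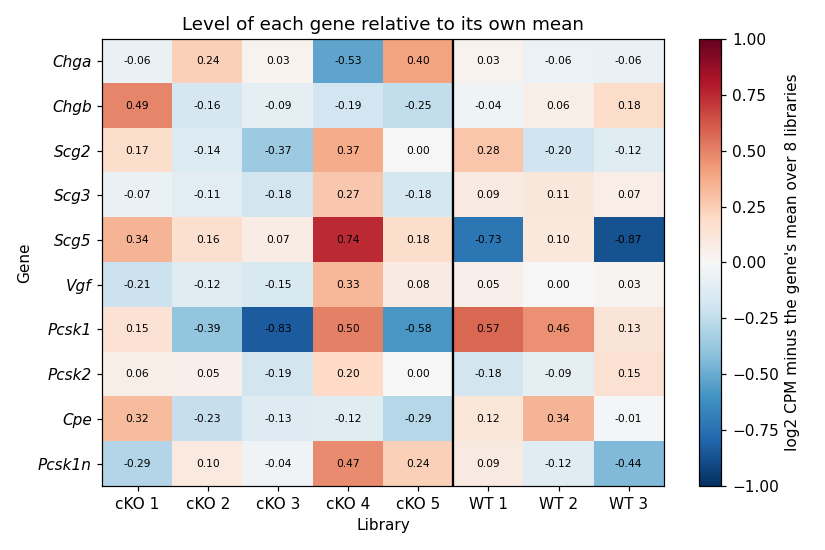
Log2 CPM of each gene minus its own mean over the 8 libraries (color and printed value), for cKO 1 to 5 and then WT 1 to 3 (x axis) and the 10 genes (y axis). Scg5 is lowest in WT 1 (-0.73) and WT 3 (-0.87), Pcsk1 is lowest in cKO 3 (-0.83), and Chgb and Cpe are both high in cKO 1 (0.49 and 0.32).

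Neither convertase message had a difference that passed, and that of Pcsk2 was small, with a sign that turned in 2 of 21 alternatives. Pcsk1 (chromosome 13, 75089826 to 75134861, plus strand), the message of PC1/3, was at 6.32, 4.33, 3.18, 8.10 and 3.80 CPM in cKO 1 to 5, against 8.51, 7.85 and 6.23 CPM in WT 1 to 3, from only 102 to 394 counts per library. Below every WT library lay cKO 2, cKO 3 and the library labelled cKO 5, while cKO 1 and cKO 4 lay inside the WT range. For Pcsk1 the log2 fold change was -0.55 (SE 0.32, 95% interval -1.25 to 0.15) with an edgeR adjusted p of 0.665. Without cKO 4 it was -0.77 at an unadjusted p of 0.0220 and an adjusted p of 0.605. Pcsk2 (chromosome 2, 143546156 to 143816285, plus strand), the message of PC2, was at 194, 192, 163, 213 and 186 CPM in cKO 1 to 5, against 163, 175 and 206 CPM in WT 1 to 3, and the groups covered nearly the same range. The fold of Pcsk2 was 1.05 with a 95% interval of 0.882 to 1.24 (edgeR adjusted p 0.911). Pcsk2 overlaps the antisense genes Pcsk2os1 and Pcsk2os2, whose counts came to 10.3% and 3.97% of its own, and without stated strandedness the reads of the overlap cannot be told apart.

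Pcsk1n (chromosome X, 7919822 to 7924410, plus strand), the message of the PC1/3 inhibitor proSAAS, was at 50.2, 65.8, 59.9, 85.2 and 72.7 CPM in cKO 1 to 5, against 65.4, 56.6 and 45.2 CPM in WT 1 to 3. Only cKO 2, cKO 4 and the library labelled cKO 5 lay above the WT range, cKO 2 by a narrow margin. Its log2 fold change was 0.26 (SE 0.18, 95% interval -0.13 to 0.65) with an edgeR adjusted p of 0.729, and it ran from 0.025 with the replicate block and GC correction to 0.48 with the marker covariate. It was 0.13 without WT 3, 0.39 without WT 1 and 0.16 without cKO 4. Eras overlaps Pcsk1n, and its counts came to 0.193% of those of Pcsk1n.

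Ratios within a library, which do not depend on how libraries are scaled, set each convertase against its partner. The ratios were not corrected for library differences tied to GC content and length. Pcsk1n (57.3% GC, 2193 exon bases) and Pcsk1 (40.6% GC, 5604 exon bases) differ in both. Per length, Pcsk1n exceeded Pcsk1 by a factor of 20.3, 38.8, 47.9, 26.9 and 48.7 in cKO 1 to 5, against 19.6, 18.4 and 18.5 in WT 1 to 3. All 5 cKO libraries lay above all 3 WT libraries, cKO 1 by a narrow margin, and the WT values were tight. How often ratios of other gene pairs separate in this way was not tested. The mean log2 ratio was 5.11 ± 0.55 in cKO (SD, n = 5) and 4.24 ± 0.051 in WT (SD, n = 3), a difference of 0.87 with an exact two-sided permutation p of 0.0357. Adjusted over the 3 pairs compared (Benjamini-Hochberg), the exact p was 0.0714, which did not pass. The smallest p that the 56 splits allow is 0.0179. Without any library in turn the difference ran from 0.75 to 1.07.

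Scg5 exceeded Pcsk2 per length by a factor of 5.06, 4.50, 4.98, 6.07 and 4.70 in cKO 1 to 5, against 2.86, 4.75 and 2.05 in WT 1 to 3. The cKO libraries clustered, and WT 2 lay among them while WT 1 and WT 3 lay below. The difference in mean log2 ratio was 0.73, with an exact permutation p of 0.0536 and 0.0714 after adjustment over the 3 pairs, and it was 0.45 without WT 3 and 1.06 without WT 2. Pcsk1 over Pcsk2 had a ratio per length of 0.0277 to 0.0537 in cKO and 0.0428 to 0.0736 in WT. Its difference in mean log2 ratio was -0.69, with an exact permutation p of 0.0714 before and after adjustment over the 3 pairs.

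**Figure D5:**
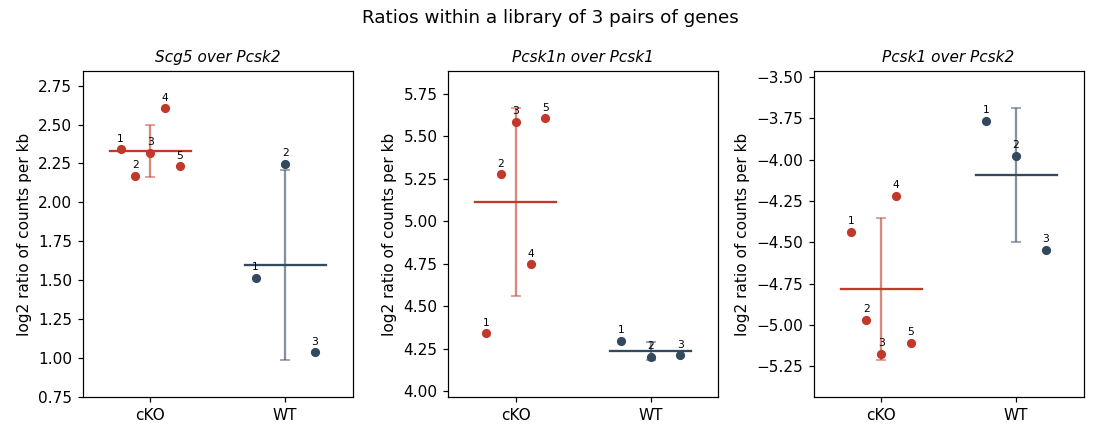
Log2 ratio of counts per 1000 bases within each library (y axis, which does not start at 0) for 3 pairs of genes in cKO (left, n = 5) and WT (right, n = 3). Points are libraries with their numbers, lines are means and bars are SD; for Pcsk1n over Pcsk1 all cKO points, 4.34 to 5.61, lie above the WT points, 4.20 to 4.30.

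Of 18 other genes for prohormone-processing enzymes, 15 were tested and 0 were called by edgeR, with 0 at an unadjusted p under 0.05 in either direction, beside 5.02% higher and 3.7% lower over all genes. Their median log2 fold change was -0.17, and 6 lay above 0 and 9 below. With a library left out that median ran from -0.25 without cKO 4 to -0.026 without WT 2, and it was -0.035 without WT 1, -0.057 without cKO 3, -0.094 without cKO 1 and -0.095 without cKO 2. Ctsl, a cathepsin that also cuts neuropeptide precursors, averaged 26.9 ± 7.35 CPM in cKO (SD, n = 5) and 36.8 ± 1.69 CPM in WT (SD, n = 3). Ctsl had a log2 fold change of -0.45 (SE 0.21, edgeR adjusted p 0.573). Pcsk7, another convertase, was at -0.59 (SE 0.29), Qpct, which forms pyroglutamate at peptide ends, at -0.81 (SE 0.50), and Ece1, a peptide-cutting metalloprotease, at 0.40 (SE 0.20), none called. Ece1 was at 0.23 without the library labelled cKO 5. Pam, the enzyme that amidates peptides including cholecystokinin, was at 84.4 CPM in cKO and 78.8 CPM in WT, a log2 fold change of 0.10 (SE 0.13).

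All 33 genes for biogenesis and release of dense-core vesicles were tested, and edgeR called 0 of them. Unadjusted p-values under 0.05 were found for 4 of the 33, all higher in cKO, beside 5.02% higher and 3.7% lower over all genes, and the median log2 fold change was 0.06, or from 0.040 to 0.10 with a library left out, the highest without WT 1. Kif1a, the motor that carries these vesicles along axons, averaged 715 ± 40.4 CPM in cKO (SD, n = 5) and 600 ± 9.79 CPM in WT (SD, n = 3). The difference in log2 for Kif1a was 0.25 (SE 0.08, edgeR adjusted p 0.499), with all cKO libraries above all WT libraries. Of the 33 genes, 3 had all cKO libraries above all WT libraries and 1 had all below, beside 3.38% and 3.82% of all genes. Ptprn, a vesicle membrane protein, had a log2 fold change of 0.30 (SE 0.11), Hid1, which acts in vesicle maturation, 0.37 (SE 0.14), and Syt7, a calcium sensor of exocytosis, 0.38 (SE 0.14). After a correction for GC content and length none of these 4 genes had an unadjusted p under 0.05. Corrected log2 fold changes were 0.05 for Kif1a (unadjusted p 0.516), 0.10 for Ptprn (0.259), 0.21 for Hid1 (0.113) and 0.20 for Syt7 (0.0866).

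Of 23 neuropeptide and trophic factor precursors with related proteins, 20 were tested and edgeR called 0. A single gene of the 20 had an unadjusted p under 0.05, beside 8.72% of all genes. The median log2 fold change was -0.0076, with 10 above 0 and 10 below, and it ran from -0.13 without cKO 2 to 0.043 without WT 2 with a library left out. That gene was Nts, the precursor of neurotensin, at 3.84 ± 1.51 CPM in cKO (SD, n = 5) and 9.81 ± 2.44 CPM in WT (SD, n = 3). Every cKO library, at 1.39 to 5.56 CPM, lay below every WT library, at 7.98 to 12.6 CPM. Such a separation, with cKO lower, was found in 1 of the 20 genes, beside 3.82% of all genes. Nts differed by -1.35 on the log2 scale (SE 0.37), which edgeR gave an adjusted p of 0.499, while DESeq2 gave 0.0460 and edgeR with the marker covariate 0.0374; over all its alternatives the adjusted p ran from 0.0374 to 0.951. Cck had a log2 fold change of 0.29 (SE 0.16), Bdnf, a trophic factor carried in these vesicles, -0.36 (SE 0.21), and Cartpt, the CART precursor, 1.32 (SE 0.96), none called. Cck was at 0.14 without WT 3 and 0.19 without cKO 4, and Bdnf at -0.24 without WT 3 and -0.56 without cKO 1 (unadjusted p 0.00252, adjusted p 0.223). Cartpt spread from 1.87 to 52.6 CPM in cKO and from 2.93 to 11.1 CPM in WT, and its sign turned in 5 of 21 alternatives.

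The 20 activity-induced genes, listed because Vgf, Scg2 and Pcsk1 respond to activity, were all tested. By edgeR 0 were called and 0 had an unadjusted p under 0.05, beside 8.72% of all genes, and the median log2 fold change was -0.15, with 6 above 0 and 14 below. Egr4 was at -0.44 (SE 0.24), Fosl2 at -0.29 (SE 0.17) and Egr3 at 0.41 (SE 0.30), all transcription factors. WT 1 stood high, with a mean log2 level of the list 0.28 above the WT mean, where WT 2 and WT 3 were at -0.15 and -0.13. Without WT 1 the median was -0.051, Egr4 was at -0.075 (unadjusted p 0.743) and Fosl2 at -0.16. Egr3 was at 0.19 without the library labelled cKO 5.

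The 3 members with the largest spread over the 8 libraries were Scg5, Pcsk1 and Pcsk1n. Among 8133 genes with a mean of at least 10 CPM, those with the smallest root mean square difference from Scg5 in centred log2 CPM were Ctsd (0.236), Caskin1 (0.256) and Fjx1 (0.261), where the median gene was at 0.546. For Pcsk1 they were Brd8 (0.245), Ssbp1 (0.247) and Ccdc117 (0.248), with a median gene at 0.539. For Pcsk1n they were Arl2 (0.0785), Stim1 (0.0856) and Fam189a1 (0.0963), with a median gene at 0.341. Among the members themselves, Scg3 and Vgf were closest, at 0.116, and Scg5 was the farthest from any other, at 0.418 from Pcsk1n.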

How the data were processed

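Per the submitters' processing notes, reads were aligned with STAR 2.5.3a and counted with HTSeq on build mm10. The annotation release, the strandedness and any filter are not given in the sources used here. The deposited values are raw counts per Ensembl gene, whole numbers with no scaling by the authors. Symbols (37693 of 39017 genes), positions, exon lengths and GC content came from GENCODE vM21 for the same build.

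The counts were tested with edgeR 4.0.16 (R 4.3.3) after TMM scaling and filterByExpr by group, in a robust quasi-likelihood fit with a two-sided test between cKO and WT. Benjamini-Hochberg adjustment ran over 17654 genes, called under 0.05. Alternatives were DESeq2 1.42.0, limma 3.58.1 (voom with quality weights), other scalings and filters, left-out libraries, and libraries 1 to 3 of each group alone. Those libraries were fitted once more with the library number as a block. Further alternatives used the mean log2 CPM of glial, precursor and vascular markers as a covariate, or a correction for GC content and length. That correction was fitted to log2 CPM in each library and entered the edgeR fit of the counts as an offset. SEs and 95% intervals of fold changes come from the quasi-likelihood F statistic. Gene pairs were compared by exact permutation of log2 ratios with 0.5 counts added. The edgeR, DESeq2 and limma-voom tests were tried on counts simulated for the 8 libraries, with 50 genes changed by each fold. Of 50 genes changed 1.5-fold, edgeR recovered 6, DESeq2 11 and limma-voom 7. Of 50 genes changed 2-fold, edgeR recovered 24, DESeq2 29 and limma-voom 24. A gene not called may therefore still differ by such a fold. Named genes were the members, Hltf, and up to 4 genes of each list with the smallest p and a mean of at least 1 CPM. Gad1, a marker, was named as a check, and Pam after its values were seen. Genes of like profile were the 3 nearest, predicted genes left out. The members, lists and rules were chosen with earlier results of these data known. Python 3.11.15 with matplotlib 3.10.9 drew the figures.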

Additional observations from a re-analysis of the deposited data

Results flagged for a closer look

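Of 14 sets of 5 cKO values examined (the 10 members, Hltf and 3 ratios), 4 had a library far from the other 4. Chance, at about 1 in 20 sets, gives about 0.7 on average. The sets are not independent, since the ratios are built from members and Chgb and Cpe had like profiles. The count therefore does not test for an excess over chance. Chgb was at 516 CPM in cKO 1, against 309 to 345 CPM in cKO 2, 3, 4 and the library labelled cKO 5; the gap to the nearest made up 0.825 of the group's range, where 0.71 is the critical value. Cpe was at 2738 CPM in cKO 1, against 1802 to 2019 CPM in the others, a gap of 0.768. Scg3 was at 75.7 CPM in cKO 4, against 55.2 to 59.8 CPM in the others, a gap of 0.775. Hltf was at 11.4 CPM in the library labelled cKO 5, against 2.83 to 5.10 CPM in the others, a gap of 0.737.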

How the results depend on the processing

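No alternative called a member in either direction, by edgeR, DESeq2 or limma-voom. Under alternatives 191 fold changes of members kept their direction and 19 turned it, all of Scg2, Vgf, Pcsk2, Chga or Chgb, and the cause was not tested. Members at an unadjusted p under 0.05 numbered 3 by limma-voom (Scg5, Pcsk1, Cpe), 4 with the covariate (Scg5, Chgb, Cpe, Pcsk1n), 1 to 3 with a library left out, and 2 (Scg5, Pcsk1) over 6 libraries, with the replicate block and with block and GC correction alike. Over all genes the share at that p was 12.8% by limma-voom, 19.6% with the covariate, 11.7% without cKO 1, 8.08% without cKO 4, and 9.38%, 8.15% and 8.76% in the 3 fits to 6 libraries. Genes called higher numbered 1 with total counts, 2 without a filter, 2 at a CPM of at least 1 in 3 libraries and 1 after the GC and length correction. Higher and lower calls were 69 and 39 by DESeq2, 3 and 1 by limma-voom, 5 and 5 over 6 libraries, and 202 and 65 with the covariate. With the replicate block over 6 libraries they were 0 and 0, with 1417 genes at an unadjusted p under 0.05, and with block and GC correction 1 and 0.

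Scg2 turned to -0.0045 with total counts, -0.055 by limma-voom, -0.10 over 6 libraries, -0.10 with the block and -0.046 with block and GC correction; with a library left out it ran from -0.069 to 0.19. Chgb turned to 0.031 over 6 libraries and 0.0040 with the block. Pcsk2 turned to -0.012 by limma-voom and ran from -0.0058 to 0.16 with a library left out. Vgf turned to 0.090 with the covariate and ran from -0.12 to 0.020. Chga turned to -0.044 after the GC correction and ran from -0.029 to 0.19. Cartpt turned to -0.30 by limma-voom, -0.57 over 6 libraries, -0.52 with the block and -0.49 with block and GC correction, and ran from -0.075 to 2.10. Egr3 turned to -0.078, -0.076 and -0.095 in the last 3 of these. None of the 30 alternatives for ratios changed direction, and none of them corrected for GC content and length. The exact p cannot go below 0.1 with 6 libraries or 0.0476 without a WT library, so those could not or could hardly pass. Across genes, deviations from group means had r of -0.0825, 0.0536 and -0.165 between same-numbered libraries, so the numbers were not taken to pair libraries. Pcsk1 rests on 102 to 394 counts per library, which limits its precision.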

Other observations

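Set against the WT range, cKO 4 had 6 of the 10 members above it and 3 below, cKO 3 had 1 above and 7 below, cKO 2 had 3 and 5, cKO 1 had 2 and 3, and the library labelled cKO 5 had 4 and 4. Over all genes tested, 34.1% lay above the WT range and 34.4% below it in cKO 4, 28.5% and 27.8% in cKO 3, 28.7% and 27.5% in cKO 2, 28.3% and 25.8% in cKO 1. For the library labelled cKO 5 these shares were 34.5% and 37.2%. Counts in single libraries are given as values, with no test. The spread of Vgf over the 8 libraries (SD 0.170 on the log2 scale) was larger than that of only 10.4% of the 1000 genes nearest in CPM, and that of Scg3 (0.161) larger than that of 25.2%, while Chgb (83.6%), Scg2 (83.7%) and Cpe (82.6%) lay well above the middle.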
